A study of Caenorhabditis elegans with 2 samples.

Results

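The 10 genes described here encode the actin of C. elegans muscle and proteins that sit on or turn over the thin filament: the actins act-1, act-2, act-3 and act-4, the troponin T genes tnt-2 and mup-2, the troponin I gene unc-27, the actin-depolymerising factor unc-60, the tropomyosin gene lev-11 and the calponin-like gene unc-87. They were chosen by name, and all 10 were found among the 19973 protein-coding genes that Ensembl places on the nuclear chromosomes of WBcel235. RNA polymerase II was mapped by chromatin immunoprecipitation and sequencing (ChIP-seq) with an antibody against AMA-1, its largest subunit, in whole L4 larvae, the last larval stage, of the wild-type strain N2. The animals were of mixed sex. The series has 1 group of 2 samples, separate biological replicates by their labels; with no second condition to compare, no test was run. Each replicate had a list of 30000 peaks. A list of the same length was called on both replicates pooled. The submitters describe these 3 lists as peaks and background together, so an entry of low rank need not mark bound polymerase. Both replicates' lists and the pooled one went into an irreproducible discovery rate (IDR) set of 2082 peaks, which were exactly the strongest pooled peaks.

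In striated muscle, thin filaments of actin slide past thick filaments of myosin. Tropomyosin lies along the actin, and troponin T anchors the troponin complex to it, in which troponin I holds the filament off until calcium binds troponin C. Cofilins sever and depolymerise filaments, and calponin-like proteins bind along them and stabilise them. Since whole animals were used, body wall muscle was measured together with all other tissues, and fewer cells of a tissue and less polymerase per cell cannot be told apart. ChIP-seq does not resolve strand, so a summit beside genes on opposite strands cannot be given to either.

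All 10 genes had an entry in the pooled list, and 5 of them had one in the IDR set. A pooled summit, the highest point of a peak, lay in the gene or within 500 bp of it for 10 of the 10 genes, against 43.3% of all protein-coding genes. For replicate 1 the count was 10 of 10, against 42.8% of all genes, and for replicate 2 it was 7 of 10, against 43.6%. An IDR summit was found at act-1, act-2, act-4, lev-11 and unc-60, which is 5 of 10 against 10.3% of all genes. Replicate 1's own strongest peaks, taken to the number in the IDR set, lay at 4 of 10 genes (act-1, act-4, lev-11 and tnt-2) against 9.28%. Replicate 2's lay at 4 of 10 (act-2, act-4, lev-11 and unc-60) against 10.8%. act-4 and lev-11 were in both of these sets. The genes were listed with earlier results of these data in view, so the counts describe them.

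The order by pooled signal, the authors' score of peak height, ran act-4, lev-11, act-2, act-1, unc-60, act-3, tnt-2, unc-87, unc-27 and mup-2. Only 64 of the 8653 protein-coding genes with a pooled peak had a stronger one than act-4, while 7511 had a stronger one than mup-2. lev-11 and act-2 were neighbours at ranks 469 and 482 in the pooled list, but replicate 1 put lev-11 first and replicate 2 put act-2 first. act-1 and unc-60, at ranks 1469 and 1653, also changed places between the replicates. The median gene of the 10 stood at percentile 89.9 of the pooled list by its highest peak (100 is the strongest peak), and the median of all genes with a peak stood at 81.2. In replicate 1 the median was 88.5 for the 10 genes, against 78.4 for all genes with a peak. In replicate 2 it was 81.9 with absent genes set to 0, and 93.5 over the 7 genes with a peak, against 81.7 for all genes with a peak. The mean of the replicate medians was 85.2 ± 4.66 (SD, n = 2).

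**Figure D1:**
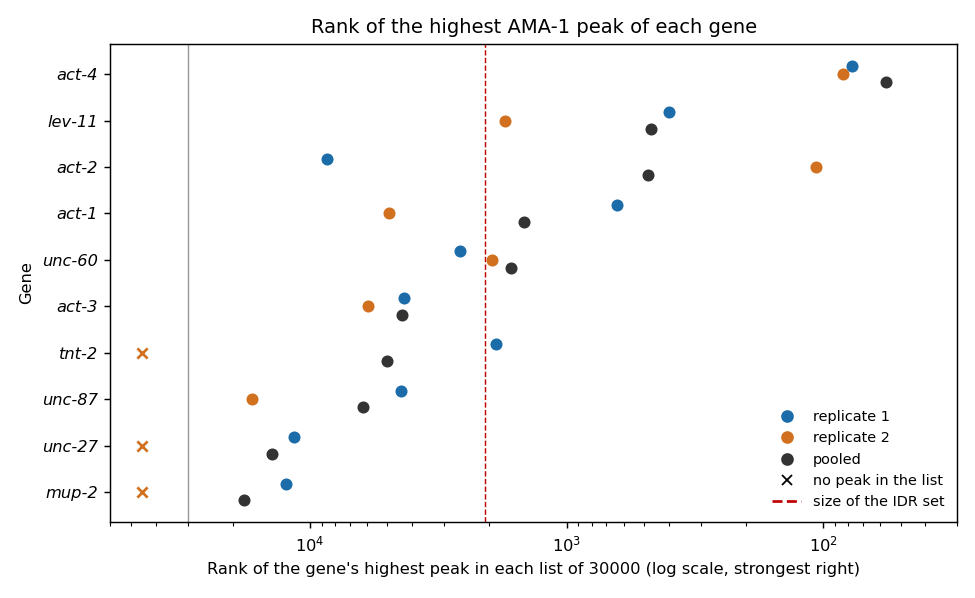
Rank of each gene's highest peak in replicate 1, replicate 2 and the pooled list (horizontal axis, logarithmic, strongest at the right; crosses, no peak in the list), with genes in pooled order from top to bottom. act-4 lies at ranks 57 to 84 in all 3 lists, act-2 is split between rank 107 in replicate 2 and rank 8614 in replicate 1, and tnt-2, unc-27 and mup-2 have no peak in replicate 2.

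Of the 8 IDR summits at these genes, 2 lay within 500 bp of a gene start, 3 within 500 bp of an end and 3 elsewhere in the gene. By gene, 2 of 10 had one near the start (act-1 and act-4), against 5.57% of all genes, and 3 of 10 near the end (act-1, act-2 and lev-11), against 6.0%. Over the full pooled list the 54 summits divided into 10 near a start, 10 near an end only and 34 elsewhere, and 42 of them lay inside the gene. There were 1.19 pooled summits per kb of gene and flanks at the 10 genes, against 0.389 over all protein-coding genes. Replicate 1 gave 1.15 per kb against 0.377, and replicate 2 gave 1.04 against 0.395. The lowest signal in the IDR set was 46.9; the strongest pooled peak of the 10 genes outside it, downstream of act-4, had 42.8.

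**Figure D2:**
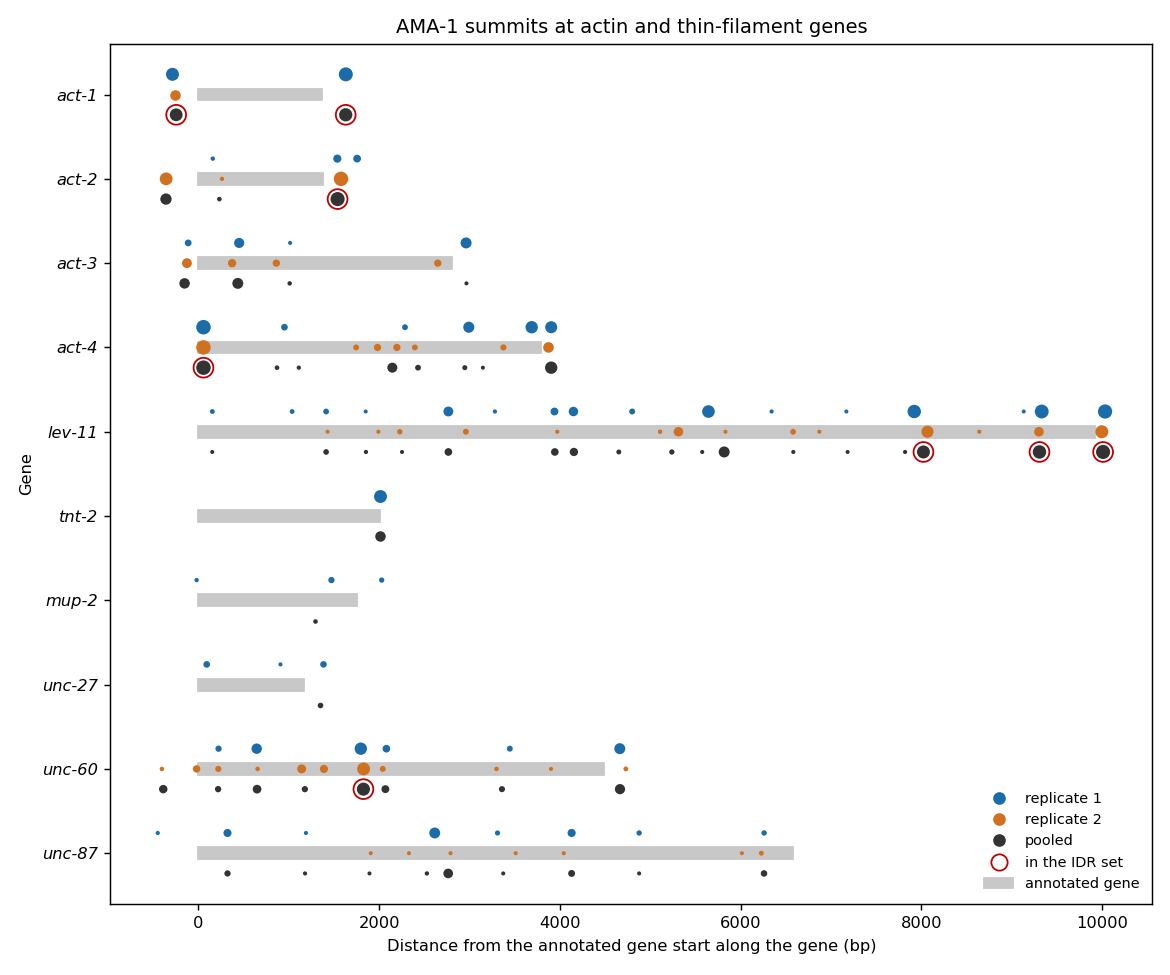
Summits along each gene and 500 bp either side, by distance from the annotated start in the direction of transcription (bp). Points are summits of replicate 1, replicate 2 and the pooled list, larger at higher percentiles; red rings mark the 8 IDR summits and grey bars the genes. At act-4 the ring lies at the start, at act-2 beyond the end, at act-1 on either side of the gene, and at lev-11 all 3 rings lie in the last part.

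The sequence before each actin start and around the actin IDR summits is shown because the coding parts of these genes are near copies of each other and their flanks are not. All sequences are from RefSeq's WBcel235 assembly (ce11), written 5′ to 3′ on the strand of the gene. In the 250 bases upstream of each annotated start, capitals mark the letters CANNTG (an E-box, the element bound by muscle regulators of the MyoD family), TATAAA and GAGAGA or its complement TCTCTC. In the summit windows, capitals mark the pooled summit with 5 bases on either side.
act-1 upstream (V:11080802-11081051, plus strand): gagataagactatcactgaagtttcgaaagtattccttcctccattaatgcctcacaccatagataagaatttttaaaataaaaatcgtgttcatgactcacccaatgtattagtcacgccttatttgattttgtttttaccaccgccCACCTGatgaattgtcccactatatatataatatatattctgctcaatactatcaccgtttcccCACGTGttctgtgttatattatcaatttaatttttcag
act-2 upstream (V:11078155-11078404, minus strand): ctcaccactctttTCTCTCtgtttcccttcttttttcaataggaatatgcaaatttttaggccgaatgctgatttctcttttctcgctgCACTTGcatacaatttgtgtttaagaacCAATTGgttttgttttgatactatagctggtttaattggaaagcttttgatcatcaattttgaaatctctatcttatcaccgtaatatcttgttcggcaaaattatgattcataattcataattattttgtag
act-3 upstream (V:11074499-11074748, minus strand): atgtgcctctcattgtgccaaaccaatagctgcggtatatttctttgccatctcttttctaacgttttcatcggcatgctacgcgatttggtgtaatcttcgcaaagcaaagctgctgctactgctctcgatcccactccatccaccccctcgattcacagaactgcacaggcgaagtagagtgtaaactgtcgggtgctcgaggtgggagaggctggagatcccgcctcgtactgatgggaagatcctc
act-4 upstream (X:4960371-4960620, plus strand): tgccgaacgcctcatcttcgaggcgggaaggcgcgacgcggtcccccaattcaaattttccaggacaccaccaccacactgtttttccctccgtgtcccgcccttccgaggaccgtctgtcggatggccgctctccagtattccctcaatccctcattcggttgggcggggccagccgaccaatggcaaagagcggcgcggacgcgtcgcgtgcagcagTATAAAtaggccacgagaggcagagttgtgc
act-1 summit 11080805 (V:11080755-11080855, plus strand): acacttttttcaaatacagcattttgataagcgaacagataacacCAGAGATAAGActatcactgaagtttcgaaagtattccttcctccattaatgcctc
act-1 summit 11082681 (V:11082631-11082731, plus strand): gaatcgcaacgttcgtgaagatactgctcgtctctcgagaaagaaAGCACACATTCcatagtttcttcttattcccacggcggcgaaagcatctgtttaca
act-2 summit 11076615 (V:11076565-11076665, minus strand): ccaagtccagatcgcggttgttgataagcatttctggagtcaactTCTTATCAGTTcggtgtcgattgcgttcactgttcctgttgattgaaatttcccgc
act-4 summit 4960676 (X:4960662-4960726, plus strand): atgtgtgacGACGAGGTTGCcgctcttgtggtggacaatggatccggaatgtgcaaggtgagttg

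act-4 carried the strongest polymerase peak of the 10 genes, at its start and at the same base in every list. This muscle actin gene lies apart from the other 3, on X at X:4960621-4964413 on the plus strand. Its peak had signal 113 at rank 77 in replicate 1, 78.4 at rank 84 in replicate 2 and 194 at rank 57 in the pooled list. The summits coincided at position 4960676, which is 55 bp from the annotated start, in the first coding exon. The percentile was 99.73 ± 0.0165 (SD, n = 2). The difference between the replicates was smaller than at 1672 of the 1702 IDR summits matched in both lists. Peaks this near the top of both lists have little room to differ in percentile, so that count partly restates the high rank. The other 7 pooled summits of act-4 were weaker, with ranks from 2566 to 28642. The highest of them, 111 bp past the end, lay in a coding exon of M03F4.6, a protein-coding gene on the opposite strand, and replicates 1 and 2 had summits there at ranks 2963 and 4834.

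The genes whose highest peaks ranked most like that of act-4 in the 3 lists were homt-1, C17G10.10 and C17G10.6. Their highest peaks stood at ranks 68, 60 and 60 in replicate 1, and at 96, 78 and 78 in replicate 2. The summit counted for homt-1 lay in an exon of the snoRNA gene Y74C9A.6, and the genes C17G10.10 and C17G10.6 shared 1 summit outside genes.

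act-1 had a summit on either side and none inside. The gene lies at V:11081052-11082415 on the plus strand, in a cluster with act-2 and act-3. Its upstream IDR summit, 247 bp before the start, had pooled signal 48.0 at rank 1984; the replicates placed it at ranks 1829 and 4917, with signal 32.7 in replicate 1 and 15.5 in replicate 2. The downstream summit, 266 bp past the end, had pooled signal 54.2 at rank 1469 and lay in an exon of the non-coding RNA gene T04C12.29 on the opposite strand. It had signal 49.4 at rank 637 in replicate 1, and replicate 2 had no summit within 100 bp of it. The stronger of the act-1 peaks was thus listed in replicate 1 alone, and the upstream one in both. By its highest peak in each list, act-1 stood at percentile 90.8 ± 10.1 (SD, n = 2).

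act-2 had its strongest peak past its end, and the replicates differed at it more than at most IDR summits. The gene lies at V:11076777-11078154 on the minus strand. The IDR summit was 162 bp past the end, in an exon of the non-coding RNA gene T04C12.14 on the same strand, with pooled signal 83.6 at rank 482. Replicate 1 had signal 15.4 there at rank 8614, and replicate 2 had 70.1 at rank 107. That is a difference of 28.4 percentile points, and 135 of the 1702 IDR summits matched in both lists (7.93%) had a larger one; the median difference over those summits was 4.39. Upstream, 360 bp before the start, a pooled summit had signal 34.7 at rank 3916. It lay in exons of the non-coding RNA genes T04C12.18 and T04C12.24. This summit had a counterpart in replicate 2 at rank 2046 and none in replicate 1. Each replicate had a weak summit in the gene, at rank 19203 in a coding exon in replicate 1 and at rank 20339 in an intron in replicate 2. These lay at positions 11077996 and 11077894, just outside the 100 bp used for matching.

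act-3 had no IDR summit, and its highest peak lay at a different place in each list. It is the longest of the cluster, at V:11071690-11074498 on the minus strand, with 3 annotated transcripts that have separate starts. Replicate 1's highest summit was 153 bp past the end (signal 22.3, rank 4303), replicate 2's was 128 bp before the start (13.9, rank 5944), and the pooled one was 435 bp inside, in an intron (33.0, rank 4394). Both replicates had summits before the start, at ranks 11272 and 5944, and in the first part of the gene, at ranks 5504 and 8386. By its highest peak, act-3 stood at percentile 82.9 ± 3.87 (SD, n = 2).

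No stretch of 36 bases in the coding parts tells act-1 from act-3. Their coding sequences of 1128 bases had 0 differences. act-2 differed from both at 43 positions and act-4 at 66, and act-2 and act-4 differed from each other at 92. Of the 36-base windows in the coding exons, 0% occurred once in the genome for act-1 and for act-3, against 57.7% for act-2 and 81.1% for act-4. In the 500 bp on either side of each of these genes the share was 100%. The sources used here give neither the read length nor the authors' treatment of reads with several matches. No pooled summit lay in the coding exons of act-1 or act-3, and whether the missing unique sequence bears on that was not tested. Over all 10 genes, 7 of the 8 IDR summits had only unique windows within 150 bp and the remaining one, at unc-60, had 90.2%; 43 of the 54 pooled summits had only unique windows.

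**Figure D3:**
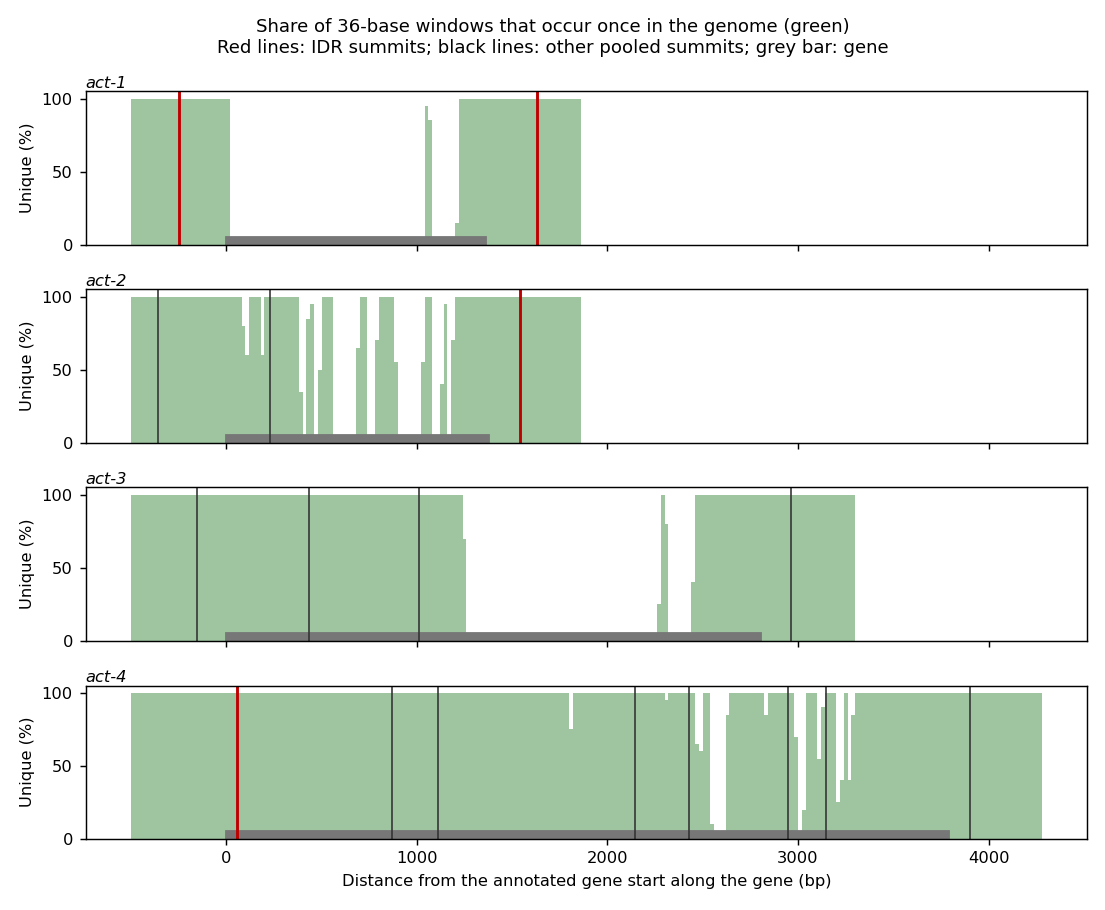
Share of 36-base windows that occur once in the genome along act-1, act-2, act-3 and act-4 (vertical axis, percent, in bins; horizontal axis, distance from the annotated start in bp), with grey bars for the genes, red lines for IDR summits and black lines for other pooled summits. The flanks are unique throughout, nearly all of act-1 and the coding part of act-3 are not, and the IDR summits of these genes lie in unique sequence.

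The sequence before the 3 troponin starts is shown because at these genes the peaks lay in or past the gene and at the start only weak ones or none were found. Capitals mark the same letters as for the actins, and 2 of the 3 hold none.
tnt-2 upstream (X:8723551-8723800, minus strand): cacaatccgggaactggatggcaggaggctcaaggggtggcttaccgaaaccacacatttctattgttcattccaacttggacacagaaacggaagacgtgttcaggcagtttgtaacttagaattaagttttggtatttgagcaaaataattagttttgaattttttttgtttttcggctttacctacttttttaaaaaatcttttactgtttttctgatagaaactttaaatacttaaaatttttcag
mup-2 upstream (X:6410228-6410477, minus strand): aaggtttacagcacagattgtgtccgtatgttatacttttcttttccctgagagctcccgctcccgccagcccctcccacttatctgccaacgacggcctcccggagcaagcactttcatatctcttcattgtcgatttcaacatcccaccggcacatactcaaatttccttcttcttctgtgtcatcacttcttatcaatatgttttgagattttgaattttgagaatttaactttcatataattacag
unc-27 upstream (X:8789206-8789455, plus strand): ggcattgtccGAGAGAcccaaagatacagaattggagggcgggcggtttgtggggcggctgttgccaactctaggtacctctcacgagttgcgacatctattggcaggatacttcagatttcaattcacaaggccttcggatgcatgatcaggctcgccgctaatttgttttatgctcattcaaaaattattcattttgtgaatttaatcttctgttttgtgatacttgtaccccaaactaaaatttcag

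The 3 troponin genes among the 10, all on X, had weak or single peaks, and none in replicate 2. tnt-2, a troponin T gene at X:8721546-8723550 on the minus strand, had 1 summit, 8 bp past its end. It had signal 32.2 at rank 1892 in replicate 1 and 30.9 at rank 5028 in the pooled list. mup-2, the troponin T gene of body wall muscle at X:6408471-6410227 on the minus strand, had 3 summits in replicate 1, the highest in a coding exon (signal 12.2, rank 12422), and 1 pooled summit of signal 13.7 at rank 18092, also in a coding exon. Of those 3, one lay 21 bp before the start at rank 19562 and one past the end in the 3′ UTR of glt-4. unc-27, the troponin I gene at X:8789456-8790621 on the plus strand, had 3 summits in replicate 1, of which the highest was 91 bp from the start in a coding exon (signal 12.9, rank 11518) and the next, 218 bp past the end, had 12.7 at rank 11705. Its pooled summit, 185 bp past the end, had signal 16.5 at rank 14113. tnt-2 was thus within replicate 1's strongest peaks, while mup-2 and unc-27, at percentiles 58.6 and 61.6 of that list, stood a little above its median signal of 10.6.

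All 4 of the genes on X, act-4 included, stood at a higher percentile in replicate 1, and 3 of the 4 had a peak in that replicate alone. Of all protein-coding genes on X with a peak in either replicate, 73.1% stood higher in replicate 1, and at act-4 the difference was 0.0233 points. Of the same genes on X, 39.4% had a peak in replicate 1 alone. Over all chromosomes the share was 15.04% of protein-coding genes with a peak in either replicate. An IDR summit was found at 1 of these 4 genes, against 5.16% of all genes on X. Replicate 1 had a summit at 39.1% of genes on X and replicate 2 at 25.6%.

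The window around the unc-60 IDR summit is shown because it lies deep in the gene, beside the end of another gene. Capitals mark the summit with 5 bases on either side.
unc-60 summit 1476911 (V:1476861-1476961, plus strand): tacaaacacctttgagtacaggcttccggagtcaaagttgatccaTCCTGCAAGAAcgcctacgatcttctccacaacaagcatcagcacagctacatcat

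unc-60, which encodes the actin-depolymerising factor and cofilin proteins of the worm, had its strongest peak inside the gene in both replicates. It lies at V:1475086-1479576 on the plus strand. The IDR summit was 1825 bp from the start, in a coding exon, with pooled signal 51.3 at rank 1653, and it had signal 28.1 at rank 2607 in replicate 1 and 23.8 at rank 1952 in replicate 2. By its highest peak unc-60 stood at percentile 92.4 ± 1.54 (SD, n = 2). The protein-coding gene F53E2.2 shares the annotated start of unc-60 and ends at 1476784, 127 bp before this summit. As annotated, the summit thus lay past the end of one gene and inside the other. Whether F53E2.2 corresponds to one of the products of unc-60, which has 1 annotated transcript, was not decided here. The other 7 pooled summits were weaker; the highest of them, 174 bp past the end of unc-60, had signal 29.7 at rank 5400, with ranks 4337 and 16943 in the replicates.

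lev-11, the worm's tropomyosin gene, had summits along its whole length, and the 3 in the IDR set lay toward its end. The gene lies at I:14621169-14631094 on the minus strand and has 20 annotated transcripts with 11 separate starts, so that one part of it can be a body for some transcripts and a start for others. There were 17 pooled summits. The strongest, 85 bp past the end, had signal 84.4 at rank 469. There replicate 1 had signal 59.7 at rank 398 and replicate 2 had 24.9 at rank 1744. The protein-coding gene Y105E8B.11, on the same strand, starts 447 bp beyond this summit, so the summit also lay within 500 bp of that start.

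The second IDR summit of lev-11 lay 619 bp before the end in an intron (pooled signal 58.4, rank 1241; ranks 780 and 6239 in replicates 1 and 2). The third lay in a coding exon 1903 bp before the end (49.9, rank 1790). Replicate 2 had a summit within 100 bp of it at rank 2882. The nearest one of replicate 1, in the adjoining intron at rank 1294, fell just outside that distance. It lay at position 14623174 and the IDR summit at 14623072. The outermost start had a pooled summit of rank 28579 nearby. Between these, the strongest summit in the body, with signal 33.2 at rank 4332, lay 157 bp from an internal transcript start. By its highest peak lev-11 stood at percentile 96.4 ± 3.17 (SD, n = 2).

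unc-87, whose product bundles actin filaments through calponin-like repeats, had many weak summits spread along the gene. It lies at I:6761221-6767797 on the minus strand. The highest of its 9 pooled summits, in a coding exon 2763 bp from the start, had signal 27.4 at rank 6220. Replicate 1's highest had signal 22.04 at rank 4441, near the same place. Replicate 2's highest had 6.77 at rank 16908 and lay at the other end of the gene, 348 bp before the end. The gene stood at percentile 64.4 ± 29.4 (SD, n = 2), and its percentile differed between the replicates by more than that of any of the other 6 genes with a peak in both.

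The replicates were set against each other at each gene and at each IDR summit. By the percentile of the highest peak, 8 of the 10 genes stood higher in replicate 1 (act-2 and unc-60 did not), against 46.4% of all genes with a peak in either replicate. The differences among the 7 genes with a peak in both ran from 0.0233 points at act-4 to 41.6 at unc-87. Their median was 5.47, against 11.5 over the 7009 such genes of the series. That median is the value of act-3, whose highest peaks lay at different places in the replicates, as did those of act-1 and unc-87. Genes near the top of both lists also have less room to differ, so the medians do not compare agreement at single sites. Among the strongest peaks of replicate 1, 5 of the 8 IDR summits had a match within 100 bp, against 67.2% of all IDR summits; among those of replicate 2, 4 had, against 59.99%. Those at act-4 and at the end of lev-11 were matched in both, which is 2 of 8 against 35.0%. The third one of lev-11 was matched in neither, against 7.78%, though a replicate 1 summit at rank 1294 lay just outside the 100 bp. With the full replicate lists, 7 of 8 were matched in replicate 1, against 93.04% of all IDR summits, and 7 of 8 in replicate 2, against 88.3%.

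**Figure D4:**
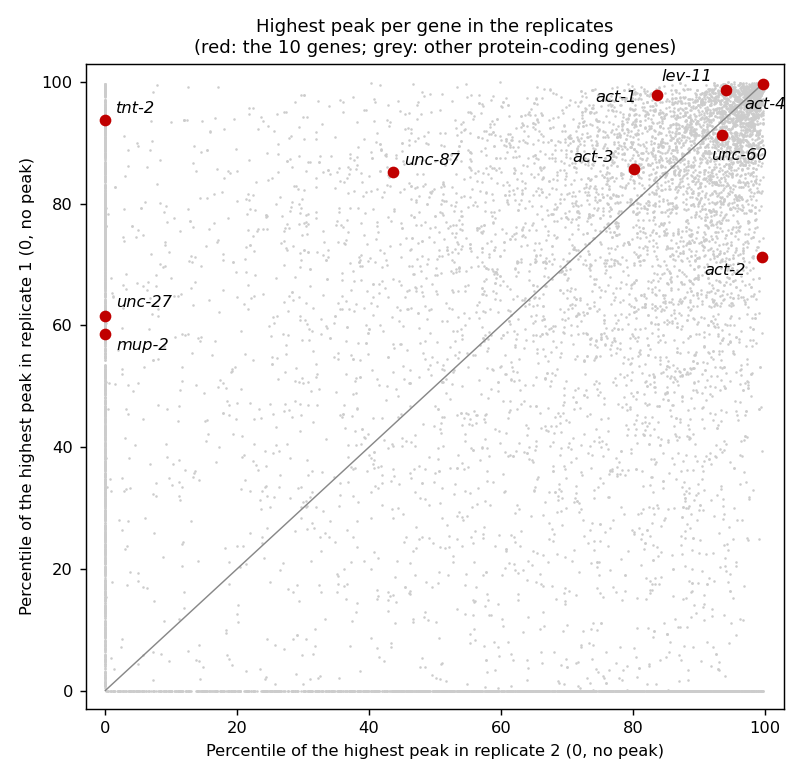
Percentile of each gene's highest peak in replicate 2 (horizontal axis) and replicate 1 (vertical axis); 0 means no peak, and the line marks equal percentiles. Of the 10 genes (red), 8 lie above the line and act-2 and unc-60 below it, and tnt-2, unc-27 and mup-2 lie on the left edge; other protein-coding genes are grey.

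Other genes of body wall muscle, and genes of other tissues, were placed differently by the replicates too. All 5 thick-filament genes of body wall muscle (unc-54, myo-3, unc-15, unc-89 and unc-22) and all 5 hypodermis genes (dpy-7, rol-6, sqt-3, col-10 and lin-26) stood higher in replicate 1. All 5 germline genes (glh-1, pgl-1, htp-3, gld-1 and him-3) stood higher in replicate 2. Of all protein-coding genes with a peak in either replicate, 46.4% stood higher in replicate 1. Replicate 1 had a peak at 5 of 5 hypodermis genes and 1 of 5 germline genes (gld-1), against 42.8% of all protein-coding genes. Replicate 2 had one at 1 of 5 hypodermis genes (col-10) and 5 of 5 germline genes, against 43.6%. The thick-filament genes myo-3 and unc-89 had no peak in replicate 2. For pharyngeal muscle 2 stood higher in each replicate, for neurons 2 in each, and for intestine 3 in replicate 1 and 1 in replicate 2. ges-1 of the intestine, tnc-2 of the pharynx and rab-3 of neurons had no peak in any list. The part of tissue composition in the values of the 10 genes was not tested.

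**Figure D5:**
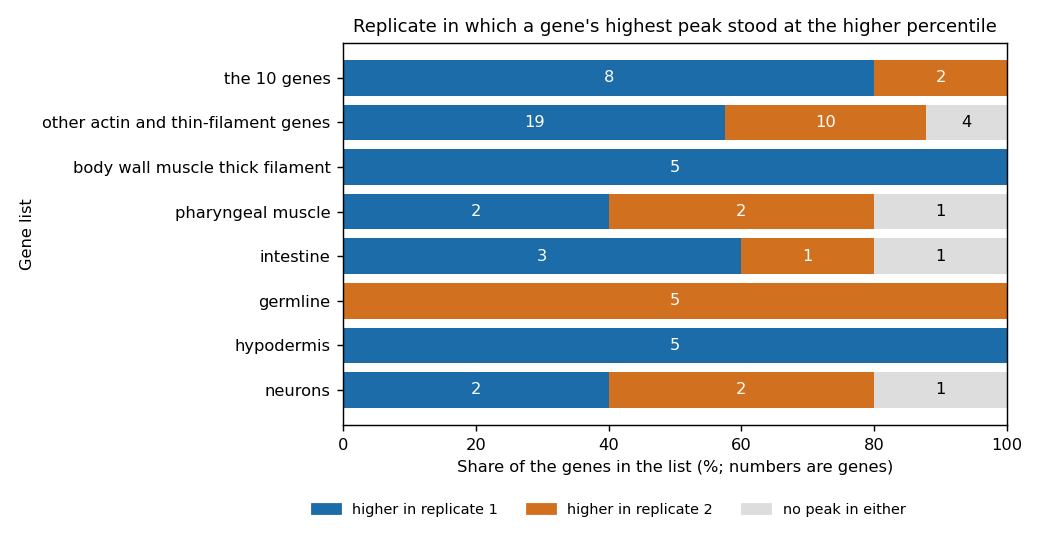
Share of each gene list whose highest peak stood at the higher percentile in replicate 1, in replicate 2, or had no peak in either (horizontal axis, percent; numbers in the bars are genes). The 10 genes divide 8 to 2, thick-filament and hypodermis genes 5 to 0, and germline genes 0 to 5. Of all protein-coding genes with a peak in either replicate, 46.4% stood higher in replicate 1 (not drawn).

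Marker genes with an IDR summit included unc-54, the major body wall myosin heavy chain, at rank 784 of the pooled list, with rank 401 in replicate 1 and 9777 in replicate 2. The summit at unc-54 lay in the 5′ UTR of aex-5. The hypodermal collagen gene col-10 stood at rank 34, with ranks 16 and 12038 in replicates 1 and 2, and rol-6 at rank 565, with rank 191 in replicate 1 and no peak in replicate 2. For ifb-2 of the intestine the pooled rank was 1911, and for snb-1, the synaptobrevin of neurons, it was 1254. By list, an IDR summit was found at 3 of 5 hypodermis genes, against 10.3% of all protein-coding genes. The count was 1 of 5 for each of the thick-filament, intestine and neuron lists. It was 0 of 5 for germline and 0 of 5 for pharyngeal muscle.

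Among 33 other genes of actin filaments and their attachment, 6 had an IDR summit, against 10.3% of all protein-coding genes. A pooled summit was found at 26, against 43.3%. All 6 genes with an IDR summit had one within 500 bp of the end, which is 6 of 33, against 6.0% of all genes. cap-2 and cpn-3 also had one near the start, 2 of 33 against 5.57%. The 6 genes included cpn-3, a calponin-family gene (pooled rank 441), pfn-1, a profilin (481), and the capping protein subunits cap-2 (956) and cap-1 (1242). The remaining ones were the filamin gene fln-1 (1149) and deb-1, the vinculin of muscle attachment (1182). The highest summit counted for fln-1 lay in the 3′ UTR of cdh-8, and that for cap-1 in a coding exon of D2024.5. Of the 33 genes, 19 stood higher in replicate 1 and 10 in replicate 2. Among all genes with a peak in either replicate, 46.4% stood higher in replicate 1. Of the troponin genes, tni-4 stood at pooled rank 2726, the troponin C gene pat-10 at 4253, tnt-3 at 6914 and tnt-4 at 9898. Each of these had a peak in both replicates. The troponin genes tni-1, tni-3 and tnc-2 had no pooled peak. act-5, the actin of intestinal microvilli, had its highest peak 106 bp before the start at pooled rank 4678.

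Letters in the window from 250 bases before to 50 after each start were counted on both strands for the 10 genes and for all 19973 protein-coding genes. CANNTG was found at 6 of the 10 (act-1, act-2, act-3, lev-11, unc-27 and unc-87), against 69.4% of all. CAGCTG, which is 1 form of CANNTG and overlaps it, was found at 0 of the 10, against 5.55%. TATAAA was found at 2, at act-4 31 bases before the start and at unc-87, against 37.9%. GAGAGA was found at 4 (act-2, lev-11, unc-27 and unc-60), against 21.8%; at unc-60 the 5 matches overlap in 1 run. In many worm genes a short leader is spliced onto the message at an acceptor that ends in AG, and the annotated start is then that acceptor and not the base where transcription began. The last bases before the start were AG at 7 of the 10 (not at act-3, act-4 and lev-11), against 27.6% of all genes, and TTTCAG at 4 (act-1, tnt-2, unc-27 and unc-87), against 12.25%. Both the AG and the TTTCAG counts were chosen after the printed sequences were seen.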

How the data were processed

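The data are AMA-1 ChIP-seq peak lists from whole wild-type L4 larvae, 1 group of 2 biological replicates. Per the notes deposited with the files, a list of peaks and background was made from each library's alignments with a control, another list from both libraries pooled, and the IDR set from these. The control was not analysed here. The sources used here name no aligner, peak caller, read filter, read length or IDR threshold, and read depth is unknown, so no counting interval or limit of detection is given. The score per peak is the authors' deposited signal value, with no fixed range, and was used only within a list.

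Coordinates are on ce11, the same assembly as WBcel235, 1-based; no peak ran past a chromosome end, and the lists on ce10 were not used. Genes came from Ensembl release 115. A summit was assigned to every gene holding it or within 500 bp of it, so neighbours can share one. Rank 1 is the highest signal, and a percentile is the share of a list's peaks at or below a peak; a gene without a peak has 0. Per-replicate sets were each replicate's 2082 strongest peaks, and summits within 100 bp were matched. Promoters of 250 bases before and 50 after the outermost annotated start were cut from RefSeq's genome; uniqueness was counted in 36-base windows on both strands. Python 3.11.15, numpy 2.4.6, pandas 2.3.3 and matplotlib 3.10.9 were used. The code of the assignment was checked on simulated data: planted summits were recovered at 200 of 200 genes, among 19973. Only genes whose window met no other gene's window were planted, so summits shared by neighbours were not tested.

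Named were the 10 genes, up to 6 of the other actin-filament genes and 2 of each marker list with an IDR summit by highest signal, 3 genes ranked most like the gene of highest signal, and genes beside the IDR summits; other genes were named after their values were seen. The 10 genes and all lists were chosen with earlier results of these data known. No test was run, since 1 group has no contrast. Alternatives were other windows, starts alone, peak intervals, stricter and looser sets, single replicates and other matching rules.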

Additional observations from a re-analysis of the deposited data

How the results depend on the processing

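The count of 5 genes with an IDR summit was 5 with windows of 250 and 1000 bp, with peak intervals and in the 4164 strongest pooled peaks, and 4 without summits near other protein-coding genes. It was 2 for gene starts alone and 3 among the 1041 strongest IDR peaks. Leaving out either replicate gave 4, with 2 genes, act-4 and lev-11, in both. The 8 summits became 2 at starts alone and 3 among the 1041 strongest, and ran from 5 to 7 when a replicate was left out; without replicate 1 the count was 5. The median pooled percentile of 89.9 was 65.8 for starts alone and ran from 81.9 to 88.5 when a replicate was left out. The mean of the replicate medians, 85.2, was 73.7 with 250 bp, 46.9 for starts alone and 55.8 for the mean over all summits. The IDR summits matched in both replicates, 2 of 8, were 6 in the full lists. Starts alone leave out peaks at ends and in bodies by construction; otherwise the cause was not tested. Of 50 values for single genes, 36 moved by less than the SD between replicates, among them all 20 with windows of 250 and 1000 bp. That SD is wide where a replicate had no peak, so mup-2 going from 39.7 to 0 at starts alone stayed within it. At act-4 the SD was 0.0165, and 99.81 becoming 99.75 without replicate 2 counted as moved. The 36 therefore do not show how stable the values are. With 2 replicates an SD is itself uncertain, and depth, read length and treatment of repeated reads are unknown here. No paired analysis was possible because there is 1 group.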

Other observations

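The letters GATAAG, or CTTATC on the other strand, fell within 5 bp of the IDR summit upstream of act-1 and of the one past the end of act-2. They were found that close at 6 of all 2082 IDR summits (0.288%), 2 of these being the actin ones. Within 50 bp the counts were 2 of the 8 summits at the 10 genes and 83 of all 2082 (3.99%). GATAAG holds the core letters bound by GATA factors, which in the worm are best known from the intestine. The letters were noticed in the printed sequences and then counted, so the share is a description of these sites and binding was not measured.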
